A study of Mus musculus with 4 samples.

Results

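The Hox genes encode homeodomain transcription factors that lie in 4 clusters, named a to d, and are numbered by paralog group from the 3′ to the 5′ end of each cluster. 33 Hox genes were measured here, of 18193 genes in the table. A gene was taken where the platform annotation gave a probe set exactly 1 symbol made of Hoxa, Hoxb, Hoxc or Hoxd and a number, and where a gene had several, the one with the highest 4-array mean stood for it. The 33 genes have 48 such probe sets, and 11 of them have more than 1. Of the 39 Hox genes in the RefSeq gene table, 6 were not analysed here.

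In the embryo, low-numbered Hox genes are switched on early and towards the head, and high-numbered ones later and towards the tail, so that the set in use marks a position on the body axis. Skin keeps such a code into adult life, best known from dermal fibroblasts of different body sites. One member, Hoxc13, has a separate role in hair, where it is required for normal hair shafts and acts on keratin genes of the shaft.

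Hair follicle stem cells (HFSCs), which renew the follicle in each hair cycle, were sorted from skin of C57BL/6 mice at postnatal day 4. 2 arrays carried RNA of miR-205 knockout (KO) cells and 2 of wild-type (WT) cells. The labels number the arrays 1 and 2 in each group and call them biological replicates, but give neither the animals behind them nor the body site of the skin, so p-values measure only the spread between these samples. A treatment text on all 4 samples describes induction of another microRNA with doxycycline and names no miR-205 allele, and the kind of knockout allele is not given in the labels.

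MiR-205 is a microRNA abundant in skin epithelium. The labels call the KO cells miR-205 KO and name no strand. The mature 5p strand of miR-205 is shown to identify the microRNA, with the seed (bases 2 to 8) in capitals, from RefSeq on GRCm38.p6 (chr1:193507503-193507524, minus strand).
mmu-miR-205-5p: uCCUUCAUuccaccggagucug
The host transcript of this microRNA, Mir205hg, was at 6.52 on KO 1 and 6.13 on KO 2, against 5.81 on WT 1 and 5.30 on WT 2, all log2 values. It is dim, and the deleted segment is not stated, so it does not check the genotype.

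Of 11 genes listed as markers of HFSCs, 10 were above the olfactory receptor reference used for the Hox genes on all arrays, and Fgf18 was the exception. Lhx2 was at 11.72 and 11.76 in KO cells against 11.66 and 11.67 in WT cells. Tcf3 and Tcf4 on this list are, by current symbol, broadly used genes and not the HFSC factors formerly given those names. Xist, the RNA of the inactive X chromosome, was at 5.26 and 5.45 in KO cells against 13.28 and 13.19 in WT cells, and the Y-linked Eif2s3y at 9.59 and 9.57 in KO cells against 3.05 and 2.86 in WT cells. Sex and genotype therefore cannot be told apart in any comparison of KO with WT cells. Dermal fibroblast markers stood apart by array rather than by genotype: their linear signals summed over 10 genes to 22347 and 11280 in KO cells, against 41187 and 8328 in WT cells. Both KO sums lay between the WT sums, but all 10 log2 differences were negative, with a median of -0.48. 9 of the 10 markers were highest on WT 1, and 9 were above the reference, Pdgfrb being the exception. 5 other marker lists had both KO sums on one side of both WT sums. For the 11 listed HFSC genes the summed linear signal was 32861 and 32408 in KO cells against 32048 and 29077 in WT cells. Of their log2 differences 3 were positive and 8 negative, with a median of -0.04, so the sum does not speak for most of them. The summed linear signal of 5 suprabasal epidermal genes was 7695 and 7536 in KO cells against 5014 and 3316 in WT cells. Of these genes only Krt1 and Krt10 had both KO arrays above both WT arrays. The median log2 value of the 5 overlapped, at 7.26 and 7.13 in KO cells against 7.22 and 7.17 in WT cells. For 6 basal keratinocyte genes the summed linear signal was 39994 and 38193 in KO cells against 36565 and 34313 in WT cells. For 6 endothelial genes, 3 of them above the reference, it was 346 and 358 in KO cells against 389 and 420 in WT cells, and for 8 dermal papilla genes, 0 of them above the reference, 199 and 193 in KO cells against 266 and 202 in WT cells. Their part in the Hox differences was not tested. 5 of 7 melanocyte, 3 of 6 immune and 1 of 6 muscle markers were above the reference, against 62.9% of all genes. In bulk RNA, fewer cells of a type and less RNA per cell cannot be told apart.

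As the table holds no detection calls, a reference was taken from olfactory receptor genes, a family known for its use in the nose. A Hox gene was called above the reference where it exceeded, on each of the 4 arrays, the 95th percentile of the 38 olfactory receptor genes on that array, which lay between 5.63 and 5.64. By this rule 18 of the 33 Hox genes were above the reference, against 62.9% of all genes. Probe sets differ in how strongly they bind their target, so a higher value of one gene than of another is not a larger amount of RNA, and a gene below the reference is not shown to be silent.

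The Hox genes above the reference came from the low and middle paralog groups, with Hoxc13 as the one exception. Among groups 1 to 9, 17 of 23 measured genes were above the reference. Among groups 10 to 13 it was 1 of 10. Cluster c had 6 of its 7 measured genes above the reference, cluster b 6 of 9, cluster a 5 of 9 and cluster d 1 of 8. All measured genes of groups 2, 5, 6 and 8 were above it, and none of groups 1, 10, 11 and 12.

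**Figure D1:**
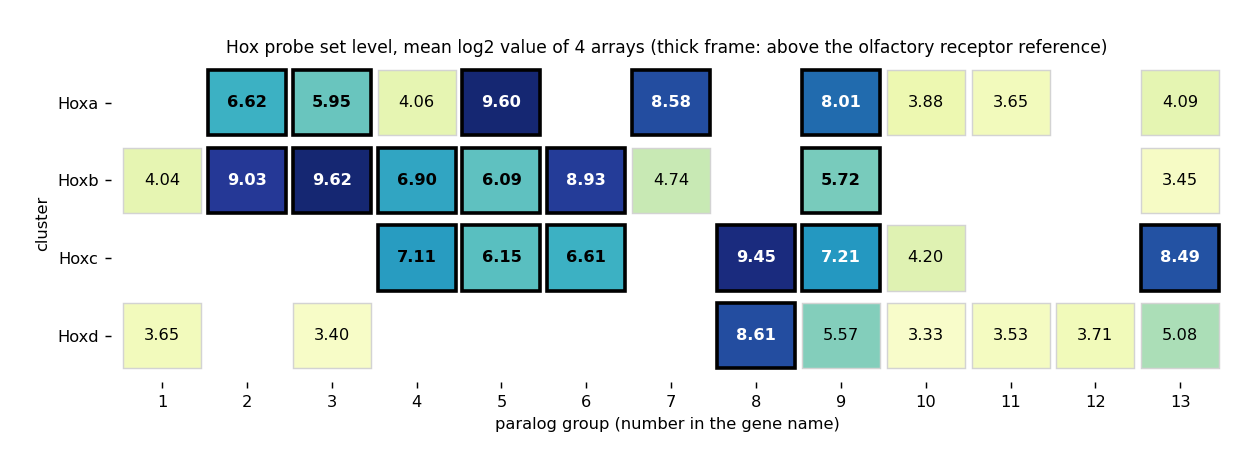
Mean log2 value over 4 arrays of each measured Hox gene, with clusters as rows and paralog groups as columns; a thick frame marks genes above the olfactory receptor reference and empty places hold no gene analysed here. The framed genes fill groups 2 to 9 of clusters a to c, apart from Hoxa4 and Hoxb7, plus Hoxd8 and Hoxc13.

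In cluster a Hoxa4, with a mean of 4.06, was below the reference between Hoxa3 and Hoxa5, which were above it. Towards the 5′ end the genes above the reference ended with Hoxa9, whose neighbour Hoxa10 was not above it. Hoxa10 was at 3.69 and 3.89 in KO cells, against 3.91 and 4.02 in WT cells, far under the reference. Hoxa9 was at 8.30 and 7.78 in KO cells, against 8.11 and 7.85 in WT cells. The 250 bases before the start of each gene are shown because they stand on the 2 sides of that 5′ boundary. They are written from RefSeq on GRCm38.p6 in the direction of the gene, both on the minus strand, with CG dinucleotides in capitals. For Hoxa10, which has 2 listed starts, the one nearer to Hoxa9 is shown.
Hoxa9, chr6:52227371-52227620: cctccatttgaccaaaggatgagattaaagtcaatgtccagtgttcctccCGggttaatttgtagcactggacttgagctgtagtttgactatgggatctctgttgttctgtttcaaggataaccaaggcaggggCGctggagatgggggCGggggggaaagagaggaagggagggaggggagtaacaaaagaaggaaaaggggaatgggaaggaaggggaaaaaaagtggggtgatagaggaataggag
Hoxa10, chr6:52234940-52235189: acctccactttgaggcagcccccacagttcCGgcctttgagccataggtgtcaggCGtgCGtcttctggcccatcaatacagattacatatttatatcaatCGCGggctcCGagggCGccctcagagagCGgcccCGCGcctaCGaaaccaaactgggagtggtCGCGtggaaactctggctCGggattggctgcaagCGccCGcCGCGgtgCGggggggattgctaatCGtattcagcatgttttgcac
The Hoxa9 sequence holds 3 CG dinucleotides and that of Hoxa10 20, with 7 at the other Hoxa10 start. RefSeq start sequences were matched for 8 of the genes above the reference and for 11 of those not above it, these 11 having 13 starts. The median number of CG dinucleotides in the 250 bases was 7.5 for the genes above the reference (range 3 to 28) and 13 for the others (range 2 to 35), against 6 over all 32851 listed starts. These ranges overlap. The letters TATAAA, read on both strands, were in 0 of 8 sequences of the genes above the reference and in 2 of 13 of the others, against 12.4% of all listed starts.

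Of the genes of groups 1 to 4, which in the embryo pattern the hindbrain and neck, 6 of 10 were above the reference. Hoxb3 was at 9.70 and 9.46 in KO cells, against 9.71 and 9.60 in WT cells. Hoxb2 was at 9.05 and 9.23 in KO cells, against 8.88 and 8.97 in WT cells. Both KO arrays lay above both WT arrays for Hoxb2, while the groups overlapped for Hoxb3. Hoxc4 was at 7.03 and 7.18 in KO cells, against 7.12 and 7.10 in WT cells. Hoxb4, known for expanding blood stem cells when forced on, was at 7.15 and 6.81 in KO cells, against 6.91 and 6.73 in WT cells. For both genes the KO and WT arrays overlapped. Hoxa2, which sets the identity of the second branchial arch, was at 7.00 and 6.59 in KO cells, against 6.60 and 6.30 in WT cells, with KO 1 the highest array and KO 2 just under WT 1. Hoxa3 was at 6.01 and 5.92 in KO cells, against 6.04 and 5.82 in WT cells. It lay close to the reference and its groups overlapped.

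The middle groups 5 to 9, which pattern the trunk in the embryo, had 11 of 13 genes above the reference. Hoxa5, required for the form of the neck and upper thoracic skeleton, was at 9.61 and 9.53 in KO cells, against 9.62 and 9.64 in WT cells, and varied by 0.11 over the 4 arrays. Hoxc8, a gene of the thoracic region, was at 9.24 and 9.39 in KO cells, against 9.58 and 9.59 in WT cells. Both KO arrays were below both WT arrays for each of them, but for Hoxa5 KO 1 was within 0.02 of WT 1. The other Hoxa5 probe set, also above the reference, was at 9.17 and 9.13 in KO cells against 9.14 and 9.13 in WT cells. There the groups overlapped and the difference was 0.01, in the opposite direction.

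Hoxb6 was at 9.06 and 9.12 in KO cells, against 8.84 and 8.71 in WT cells, with no overlap. Hoxd8 was at 8.46 and 8.50 in KO cells, against 8.71 and 8.75 in WT cells, again with no overlap but in the opposite direction. Hoxa7 was at 8.44 and 8.68 in KO cells, against 8.46 and 8.74 in WT cells. Its 2 arrays of number 2 were both higher than those of number 1, and the groups overlapped. Hoxa9, given above, went the other way, with both number 1 arrays higher. The other Hoxa9 probe set, also above the reference, was at 6.89 on every array. Hoxc9, a gene of the thoracic region, was at 7.17 and 7.33 in KO cells, against 7.17 and 7.17 in WT cells, KO 2 alone being higher.

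The other genes of the middle groups were dimmer. Hoxc6 was at 6.66 and 6.59 in KO cells, against 6.59 and 6.59 in WT cells. Hoxc5 was at 6.14 and 6.16 in KO cells, against 6.15 and 6.14 in WT cells. The probe sets used for both genes were nearly level over the arrays. Another Hoxc5 probe set, not above the reference, ran from 4.88 on KO 1 to 5.27 on WT 1. Another of Hoxc6 ran from 6.42 on WT 2 to 6.67 on WT 1. Hoxb5 was at 6.29 and 6.09 in KO cells, against 6.09 and 5.87 in WT cells, with KO 2 equal to WT 1. Hoxb9 stood just inside the reference, at 5.69 and 5.69 in KO cells, against 5.82 and 5.69 in WT cells. Hoxd9 stood just outside it, at 5.53 and 5.58 in KO cells, against 5.60 and 5.58 in WT cells.

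Hoxc13, the hair gene of the family, was at 8.41 and 8.46 in KO cells, against 8.66 and 8.43 in WT cells. WT 1 was the highest array and the groups overlapped. The other 9 measured genes of groups 10 to 13 had means of 3.33 to 5.08. The highest of them was Hoxd13, at 5.08 and 5.17 in KO cells, against 4.86 and 5.20 in WT cells. Hoxa13 and Hoxb13, of the same paralog group as Hoxc13, had means of 4.09 and 3.45.

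**Figure D2:**
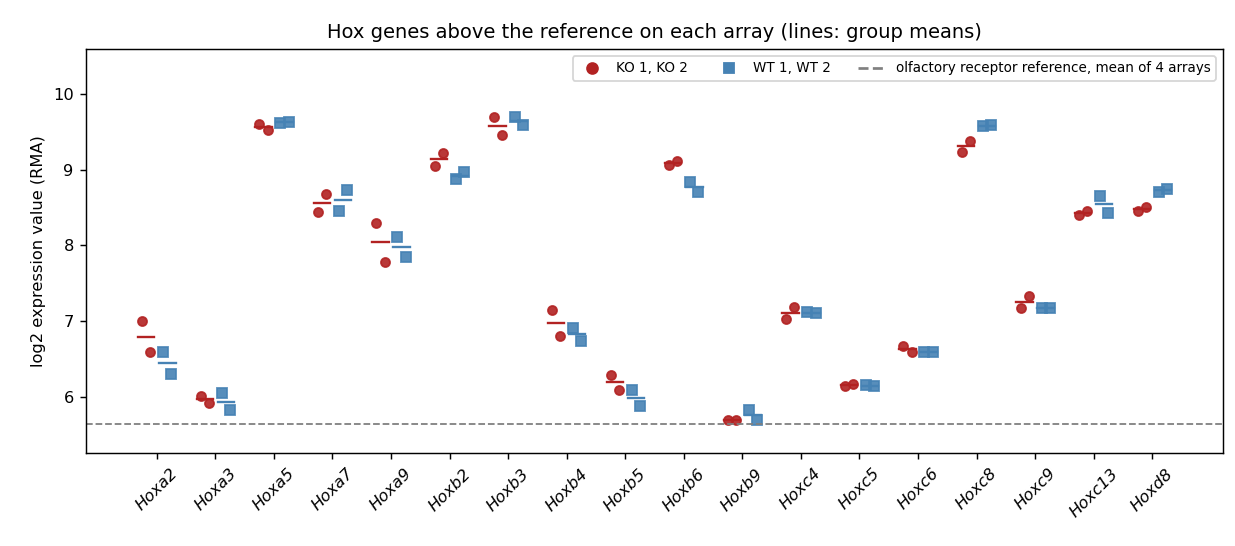
Log2 values of the 18 Hox genes above the reference, with KO 1 and KO 2 as circles to the left and WT 1 and WT 2 as squares to the right of each gene, group means as lines and the mean reference dashed. KO and WT points separate for Hoxb2, Hoxb6, Hoxc8 and Hoxd8, and by less than 0.02 for Hoxa5.

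No Hox gene differed between KO and WT cells past an adjusted p of 0.05 (limma, Benjamini-Hochberg over all 18193 genes), where 0.011% of all genes, 2 in number, did. These 2 are Xist and Eif2s3y, the genes given above for the sex difference between the groups. Every Hox gene had an adjusted p of 1. At an unadjusted p under 0.05, 2 Hox genes were higher in KO cells, against 1.15% of all genes, and 2 were lower, against 0.726% of all genes. The 4 genes are Hoxb6, Hoxd12, Hoxc8 and Hoxd8. Together they are 4 of 33, against 1.88% of all genes in either direction. The counts changed when single arrays were left out: 1 gene was higher and 2 lower without KO 1, 0 were higher and 4 lower without KO 2, and 2 were higher and 1 lower without WT 1. In these fits the shares of all genes in either direction were 8.63% without KO 1, 11.2% without KO 2 and 5.74% without WT 1.

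Hoxb6 averaged 9.09 ± 0.04 in KO cells against 8.78 ± 0.09 in WT cells (SD, n = 2 each), a difference of 0.31 on the log2 scale (SE 0.07, limma adjusted p = 1), or 1.24-fold. Within the numbers it was 0.22 and 0.41. Hoxb6 has 1 probe set here, so no second reading exists in the table. Without KO 1 or without KO 2 its unadjusted limma p was 0.101 and 0.128, with differences of 0.34 and 0.29.

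Hoxd8 averaged 8.48 ± 0.03 in KO cells against 8.73 ± 0.03 in WT cells (SD, n = 2 each), a difference of -0.25 (SE 0.05, limma adjusted p = 1), and it was -0.25 within each number. Its other probe set, at a mean of 7.00, differed by -0.09. KO 1, KO 2 and WT 2 had the same value there, 6.95, and WT 1 was at 7.13. Hoxc8 averaged 9.32 ± 0.10 in KO cells against 9.59 ± 0.01 in WT cells (SD, n = 2 each), a difference of -0.27 (SE 0.07, limma adjusted p = 1). It was -0.34 and -0.20 within the numbers, and without WT 1 or WT 2 its unadjusted limma p was 0.142 and 0.150. Hoxc8 and Hoxd8 are the 2 measured genes of paralog group 8.

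Hoxd12 was at 3.77 and 3.82 in KO cells, against 3.65 and 3.60 in WT cells, a difference of 0.17 (SE 0.05, limma adjusted p = 1). All of these values are well under the reference, so they are not shown to be signal of this gene.

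**Figure D3:**
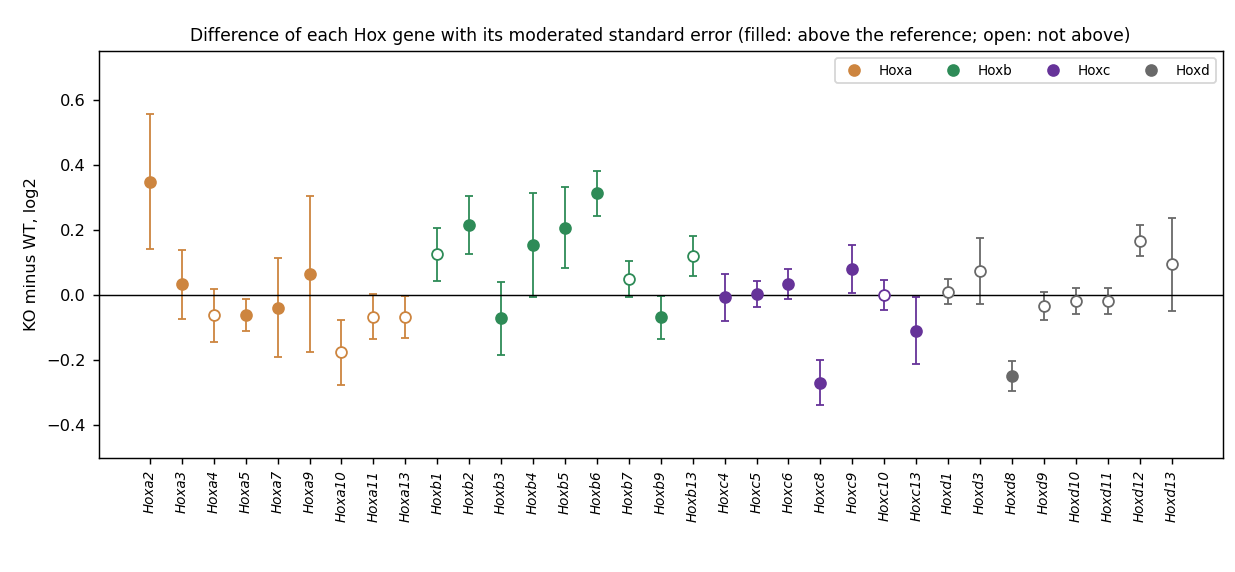
KO minus WT difference of each of the 33 Hox genes on the log2 scale with its moderated standard error, coloured by cluster, filled where the gene is above the reference. Differences run from -0.27 (Hoxc8) to 0.35 (Hoxa2).

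Signs within the clusters were not tested against each other. 7 of the 9 b genes had a positive difference, with a median of 0.13, and 6 of the 9 a genes a negative one, with a median of -0.06. 4 of these 6 a genes are below the reference, and over the 5 a genes above it the median was 0.03, against 0.18 over the 6 b genes above it. The medians of all measured genes were 0.00 for cluster c and -0.0035 for cluster d. Hoxb2 differed by 0.22 (SE 0.09), Hoxb5 by 0.21 (SE 0.12) and Hoxb4 by 0.15 (SE 0.16), each higher in KO cells within both numbers. None of them passed (limma adjusted p = 1). Hoxb3 and Hoxb9 differed by -0.07 each.

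Over all 33 Hox genes, 17 differences were positive and 15 negative, and that of Hoxc10 was 0.00. The median was 0.00, against 0.01 over all genes. Over the 18 genes above the reference it was 0.02, against 0.01 over all genes above it. 4 Hox genes had both KO arrays above both WT arrays, against 8.2% of all genes, and 4 had both below, against 5.7% of all genes. The largest difference, 0.35 for Hoxa2, had an SE of 0.21. Hoxa2 was higher in KO cells within both numbers, by 0.40 and 0.30, while its groups overlapped.

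**Figure D4:**
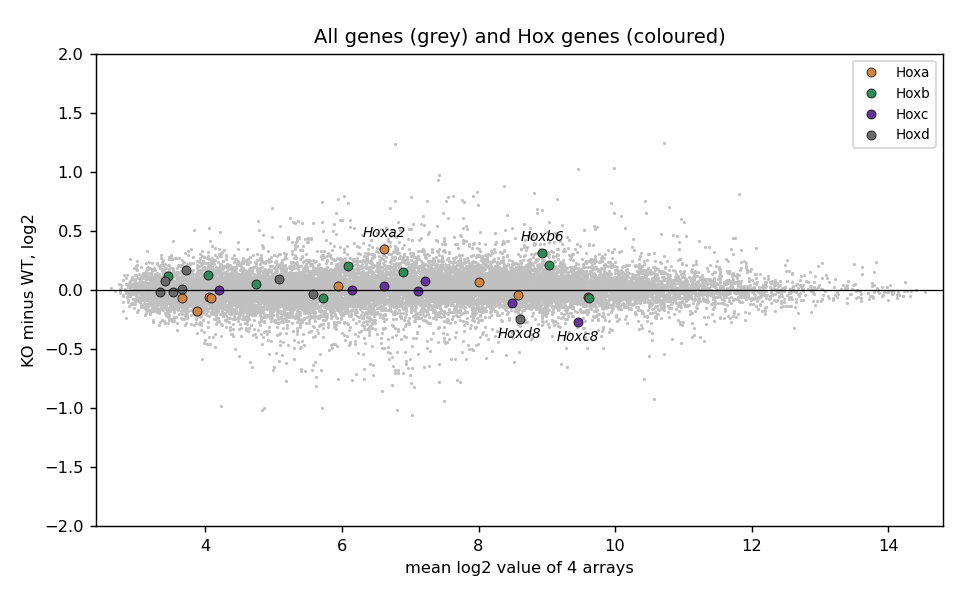
KO minus WT difference (log2) against the mean log2 value for all genes in grey and the Hox genes in colour; genes beyond the ends of the axis are not drawn. The Hox genes sit within the grey band at every level.

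Between arrays the Hox genes varied over a smaller range than the dermal fibroblast markers. Over the 4 arrays the 18 genes above the reference had a median range of 0.27, the smallest being 0.03 (Hoxc5) and the largest 0.70 (Hoxa2). Over all genes above the reference the median range was 0.24. The dermal fibroblast markers had a median range of 2.53, and 9 of the 10 were at least 2-fold higher on WT 1 than on WT 2, against 0 of the 18 Hox genes. 8 of the 10 markers stood in the order WT 1, KO 1, KO 2, WT 2, against 1 of the 18 Hox genes. WT 1 was the highest array for 4 Hox genes, WT 2 for 4, KO 1 for 5 and KO 2 for 5.

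**Figure D5:**
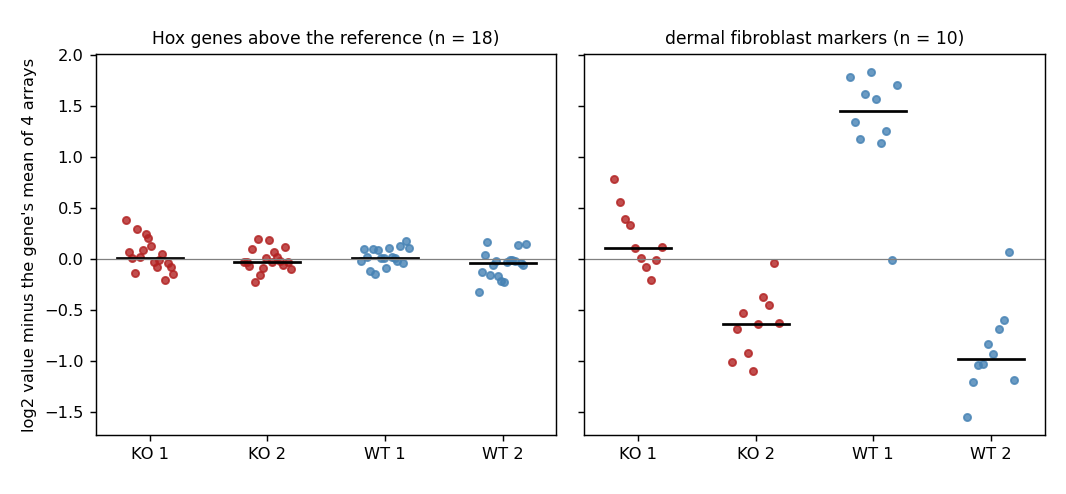
Log2 value minus the gene's mean over the 4 arrays, by array, for the 18 Hox genes above the reference (left) and 10 dermal fibroblast markers (right), with the median of each array as a line. The fibroblast medians run from -0.98 on WT 2 to 1.45 on WT 1, while the Hox medians stay between -0.04 and 0.01.

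HOX proteins bind DNA together with cofactors of the TALE homeodomain class (MEIS, PBX and PKNOX). Of 8 such genes measured 4 were above the reference, and 0 were higher and 1 lower in KO cells at an unadjusted p under 0.05. The 4 were Pbx3, at 9.31 and 8.90 in KO cells against 9.15 and 9.25 in WT cells, Pknox1, at 8.80 and 8.89 in KO cells against 8.80 and 8.81 in WT cells, Pbx2, and Meis1. Pbx2 was at 8.42 and 8.54 in KO cells, against 8.68 and 8.71 in WT cells, a difference of -0.21 (SE 0.06, limma adjusted p = 1). Meis1 was at 7.82 and 7.77 in KO cells, against 7.95 and 7.65 in WT cells. The median difference of the 8 genes was -0.05.

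Of the genes flanking the clusters and the noncoding genes inside them, 9 were measured and 5 were above the reference. These 5 are Hoxb5os and the flanking genes Skap2, Cbx1, Cbx5 and Mtx2. Hoxb5os, a noncoding transcript antisense to cluster b genes, was at 9.32 and 9.46 in KO cells, against 9.14 and 9.26 in WT cells, a difference of 0.19 (SE 0.09, limma adjusted p = 1). It stood in the same direction as Hoxb5 and Hoxb6 with no overlap between the groups, and these arrays do not tell how far overlapping transcripts share signal. Hoxd3os1 was below the reference, at 4.55 and 4.55 in KO cells against 4.98 and 4.78 in WT cells. Skap2 differed by -0.06 (SE 0.17), Cbx5 by 0.11 (SE 0.17) and Mtx2 by -0.06 (SE 0.06).

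Of 10 ParaHox and Hox-inducing genes 4 were above the reference, and 0 of these 4 had an unadjusted p under 0.05. 1 gene under the reference, Gsx1, was lower in KO cells at that threshold, with a difference of -0.23. Kmt2a, the histone methyltransferase that maintains Hox transcription, differed by 0.06 (SE 0.08), its partner Men1 by 0.05 (SE 0.08), Gdf11, a ligand that acts on posterior Hox genes in the embryo, by 0.08 (SE 0.04) and Gmnn by -0.04 (SE 0.07). The 3 Cdx genes, which induce Hox genes in the embryo, were below the reference. Of 10 retinoic acid genes 4 were above the reference and 0 passed an unadjusted p of 0.05. The receptor gene Rarg differed by -0.02 (SE 0.04), Rara by -0.05 (SE 0.08), the retinoic acid degrading enzyme gene Cyp26b1 by -0.23 (SE 0.19) and Crabp2 by 0.05 (SE 0.11).

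Of 18 other positional factors of skin 9 were above the reference and 0 had an unadjusted p under 0.05, with a median difference of -0.02. Dlx2, a homeobox gene, was at 9.01 and 8.76 in KO cells against 9.26 and 8.81 in WT cells, and Barx2 at 8.58 and 8.34 in KO cells against 9.25 and 8.28 in WT cells. Dlx3, a factor of hair and epidermal differentiation, differed by 0.20 (SE 0.31) and Lmx1b by 0.08 (SE 0.08). Tbx15, a T-box gene of the dorsal dermis chosen with its values in view, was at 6.81 and 6.01 in KO cells, against 8.02 and 5.86 in WT cells. That is the order of most dermal fibroblast markers, WT 1, KO 1, KO 2, WT 2, and 6 of the 9 positional factors above the reference stood in it (Tbx15, Msx1, Msx2, Barx2, Dlx1 and Dlx3).

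Keratin genes of the hair and inner root sheath were looked at beside Hoxc13. 13 genes were measured, among them Foxn1, a transcription factor gene downstream of Hoxc13. Of these, 9 were above the reference, and 0 had an unadjusted p under 0.05. Krt35, a hair shaft keratin, was at 7.66 and 8.00 in KO cells, against 8.90 and 7.91 in WT cells, a difference of -0.57 (SE 0.43). Krt71, an inner root sheath keratin, was at 8.78 and 9.27 in KO cells, against 8.49 and 8.78 in WT cells, a difference of 0.39 (SE 0.23). Krt34 differed by 0.21 (SE 0.13), Krt84 by -0.16 (SE 0.11), and Foxn1 was below the reference. WT 1, the highest array for Hoxc13, was also the highest for Krt31, Krt32, Krt33b and Krt35. The same held for Krt33a, Krt82 and Krt86, which were not above the reference. For Krt72 and Foxn1 it shared the highest value. It was not the highest for Krt34, Krt71, Krt81 and Krt84, and only for Krt71 was it the lowest. WT 1 was also the highest array for 9 of the 10 dermal fibroblast markers and 7 of the 9 positional factors above the reference. A link between Hoxc13 and the keratin genes was not tested.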

How the data were processed

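The arrays were one-colour Affymetrix mouse arrays with biotin-labelled RNA. The authors deposited log2 values made with RMA, a version not being given, per the submitters' processing notes; array medians lay between 5.85 and 5.87. Probe sets were named through GEO's platform annotation (34945 with 1 symbol, 932 with several, 9160 with none here, 64 controls left out), and symbols were checked by gene ID against the GRCm38.p6 RefSeq table (34741 matched). The comparison of KO with WT used limma (3.58.1, under R 4.3.3) without covariates or filters, with two-sided tests from lmFit and eBayes and Benjamini-Hochberg adjustment over 18193 genes, after a test on simulated data. SE is the moderated standard error. RMA sets all arrays to 1 distribution, dim values have compressed folds, and 16 of the 33 Hox genes had equal values on at least 2 arrays. All Hox genes above the reference or with an unadjusted p under 0.05 are named with each array's value. Of each other list, up to 4 genes above the reference with the smallest p were described, and other genes were named to complete a comparison. The members and lists were chosen with earlier results of these data known. The number of arrays limits the precision. Alternatives were normalization, removal of dim genes, averaged probe sets, eBayes settings, a replicate block, other reference limits and leaving out each array.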

Additional observations from a re-analysis of the deposited data

How the results depend on the processing

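No Hox gene passed an adjusted p of 0.05 with limma under any of the 10 alternatives, against 4 at an unadjusted p under 0.05 in the fit as reported. The number with an unadjusted p under 0.05 and higher in KO cells was 2 as reported, and 1 with quantile normalization again, 1 with median centring, 1 with the filter on dim genes (which keeps 12 Hox genes) and 4 with the replicate block (Hoxa2, Hoxb2, Hoxb5 and Hoxb6). The number lower was 2 as reported, and 1 with quantile normalization again. Without single arrays it ran from 0 to 2 higher and from 1 to 4 lower, with 0 higher and 4 lower without KO 2. The share of all genes with an unadjusted p under 0.05 in either direction was 1.88% as reported, 4.83% with the replicate block, 5.74% to 11.2% without single arrays (11.2% without KO 2) and 1.46% to 2.06% in the other fits. Quantile normalization again put the unadjusted p of Hoxc8 and Hoxd12 above 0.05 in limma. The median difference of the genes above the reference ran from -0.01 (without WT 2) to 0.03 (median centring) and was -0.02 over the 12 genes the dim filter keeps. Among 19 named genes, 5 changed sign without KO 1, 4 without WT 2, 2 without WT 1, 2 without KO 2, 1 with median centring (Hoxc4) and 1 with the mean of probe sets (Hoxc5). Hoxc6 without KO 1, Hoxc9 without KO 2 and Hoxb9 without WT 1 moved to 0. Hoxb6, Hoxc8, Hoxd8 and Hoxd12 kept their sign, but their KO and WT arrays do not overlap, so leaving out an array could not change it. Hoxa2, Hoxa5, Hoxb2 and Hoxb5 also kept their sign in each alternative that fitted them. For Hoxa5 and Hoxb2 the KO and WT arrays do not overlap either, and for Hoxb5 KO 2 only equals WT 1. Leaving out an array could therefore not turn the sign of Hoxa5, Hoxb2 or Hoxb5. The number above the reference was 18 as reported, 15 at the 99th percentile or at the array median (Hoxa3, Hoxb5 and Hoxb9 lost in both) and 16 with the mean of probe sets (Hoxa3 and Hoxc5 lost). Same-number arrays deviated together across genes (r = 0.56, over genes that are not independent of each other). With 2 pairs this does not show that the numbers pair the samples. Of the 18 Hox genes above the reference, 10 had both number 1 arrays on the same side of their group means. Differences of the 15 genes not above the reference are not shown to be signal of these genes.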

Other observations

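3 probe sets carry several Hox symbols each, entered no comparison and were looked at afterwards. One of cluster b was at 6.59 on KO 1 and 5.42 on KO 2, against 6.77 on WT 1 and 5.51 on WT 2, so both number 1 arrays were more than 2-fold above both number 2 arrays, a wider range than that of any of the 33 Hox genes. 2 of cluster d were at 5.94 and 6.10 in KO cells against 6.10 and 6.10 in WT cells, and at 4.95 and 5.17 in KO cells against 5.11 and 4.90 in WT cells.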
